A study of Homo sapiens with 8 samples.

Results

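The BCL2 family decides whether the outer mitochondrial membrane of a stressed cell stays closed. The expression of 10 of its members was followed here in MDA-MB-231 cells, an estrogen receptor negative human breast cancer cell line, with and without carboxymethyllysine (CML), a sugar-derived modification of lysine that accumulates in diabetes. The members were chosen by name: every row of the deposited expression table for BCL2L1, BCL2L2, MCL1, BCL2A1, BAX, BAK1, BCL2L11, BID, BBC3 and PMAIP1. All 10 were found among the 17649 gene symbols of the table. RNA-Seq had been performed on 4 control libraries and 4 libraries of cells that had received 1 μM CML. Both groups had been kept for 48 hours at 5 mM glucose, and the controls had received phosphate-buffered saline in place of CML. The experiment rests on a single established tumor line, and the labels do not say whether the 4 libraries of a group came from separate cultures, so p-values measure the spread between these libraries, which may be technical.

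In this family, antiapoptotic proteins hold the pore-forming effectors BAX and BAK1 in check, and the BH3-only proteins relieve that restraint or activate the effectors directly. Once BAX or BAK1 permeabilizes the membrane, cytochrome c reaches APAF1 and the caspase cascade starts. In epithelial tumors the balance is often held by BCL2L1 (BCL-XL) and MCL1 rather than by BCL2 itself, and cells tilt that balance by transcription as well as by protein turnover.

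The libraries held an estimated 16161802 to 18954733 reads each, so that 1 read was worth 0.0535 to 0.0622 CPM (counts scaled to the library total), the unit of all levels given here. The line's mesenchymal markers were abundant, with VIM at 4014 to 4243 CPM and AXL at 1122 to 1263 CPM over the 8 libraries. Among markers of epithelial or hormone-responsive cells, CDH1 was at 0.311 to 0.954 CPM and PGR at 0 to 0.114 CPM, while GATA3 (3.47 to 5.61 CPM) and EPCAM (12.7 to 16.3 CPM) were detected. ESR1 had no row among the deposited values. The leukocyte gene PTPRC lay at 0.116 to 0.650 CPM and the endothelial gene PECAM1 at 2.36 to 3.84 CPM. Control replicates 1 and 4 and CML replicate 4 stood apart from the other libraries in how levels followed base composition. Per 10 percentage points of transcript GC content, values changed on the log2 scale, relative to the mean library, by 0.0732 in control replicate 1, by −0.0887 in control replicate 4 and by −0.0709 in CML replicate 4, against 0.00951 to 0.0239 in the other 5. Where leaving out 1 of these libraries changed a call or a direction, the value without it is given.

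The regions before the gene starts differed between the members. Of the 10 members, 8 could be matched to RefSeq promoter sequences of GRCh38.p14, MCL1 and BCL2L2 being the exceptions, and for BBC3 the annotated start lies inside the gene, so that its window overlaps the gene. The 250 bases before the start held 36 CpG dinucleotides in PMAIP1 and 34 in BCL2L11, 25 in BAX and 17 in BCL2L1, against a median of 11 over 27305 gene windows. The remaining windows were below that median, with 5 in BAK1, 4 in BID, 4 in BBC3 and 2 in BCL2A1. Both strands were searched for the E-box CACGTG, the AP-1 motif TGANTCA, the TATA element TATAAA and the κB motif. These are held by 6.49%, 6.6%, 11.1% and 5.05% of all windows, respectively. No 2 matches overlapped in these windows, and none of the 8 held the κB motif. Sequences are shown for BCL2L1, the member with the highest level per kilobase of transcript, for BCL2A1, the one with the lowest, and for BAX, the effector with the most matches. They are written 5′ to 3′ on the gene's own strand, and capitals mark TATAAA in the first 2 and CACGTG in BAX.
BCL2L1, chr20:31723964-31724213, minus strand: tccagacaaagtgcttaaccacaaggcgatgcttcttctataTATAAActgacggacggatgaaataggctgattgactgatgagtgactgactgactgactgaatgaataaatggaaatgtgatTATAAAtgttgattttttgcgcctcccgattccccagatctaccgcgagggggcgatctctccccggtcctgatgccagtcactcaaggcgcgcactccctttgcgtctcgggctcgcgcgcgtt
BCL2A1, chr15:79971197-79971446, minus strand: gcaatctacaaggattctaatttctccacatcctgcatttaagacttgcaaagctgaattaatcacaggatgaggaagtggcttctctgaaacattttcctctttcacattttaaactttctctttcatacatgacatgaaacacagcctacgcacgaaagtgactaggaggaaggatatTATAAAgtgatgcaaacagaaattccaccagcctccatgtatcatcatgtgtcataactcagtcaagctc
BAX, chr19:48954625-48954874, plus strand: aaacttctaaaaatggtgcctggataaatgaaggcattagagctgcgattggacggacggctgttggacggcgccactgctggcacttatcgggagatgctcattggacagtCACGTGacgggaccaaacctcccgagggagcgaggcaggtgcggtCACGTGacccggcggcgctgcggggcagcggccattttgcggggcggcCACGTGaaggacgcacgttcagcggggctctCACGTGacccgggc
The BAX window carried 4 E-boxes, beginning 138, 93, 45 and 14 bases before the start, and 5 of the 27305 windows carried 4 or more. In BCL2L1 the TATAAA matches began 208 and 125 bases before the start, and in BCL2A1 the match began 70 bases before it. The BBC3 window held 1 E-box and 1 AP-1 match. BAK1, BCL2L11, BID and PMAIP1 held no match. A match is a stretch of letters and says nothing of whether a factor was bound in these cells.

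Levels of different genes were compared per kilobase of 1 GENCODE transcript per gene, so the order depends on the transcript chosen. That transcript had 795 bases for BAX and 2170 for BAK1. Before division by length, BAX had 69.4 CPM and BAK1 78.2 CPM in controls, and BCL2L1 (507 CPM) was below MCL1 (531 CPM). BCL2L1, which encodes BCL-XL from its long splice form and a proapoptotic protein from its short one, had the highest level, at 197 ± 6.21 CPM per kilobase in controls (SD, n = 4). MCL1, a short-lived antiapoptotic protein, followed at 134 ± 5.92 CPM per kilobase. The effector BAX came next at 87.3 ± 2.54 CPM per kilobase, above PMAIP1 (40.1 ± 1.37) and the second effector, BAK1 (36.0 ± 2.20). BCL2L2 (BCL-W) stood at 21.9 ± 0.263 CPM per kilobase. The BH3-only genes BID (9.46 ± 0.504) and BBC3 (9.32 ± 2.36) were close to each other, and they were the only neighbors in this order whose values overlapped over the 8 libraries. BCL2L11 (BIM) at 2.24 ± 0.122 and BCL2A1 at 1.19 ± 0.188 CPM per kilobase were the lowest. The order was the same in the means of the CML group, from 209 ± 7.27 for BCL2L1 to 1.36 ± 0.272 for BCL2A1. The levels count all splice forms of a gene together, so that the long and short forms of BCL2L1 cannot be separated.

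**Figure D1:**
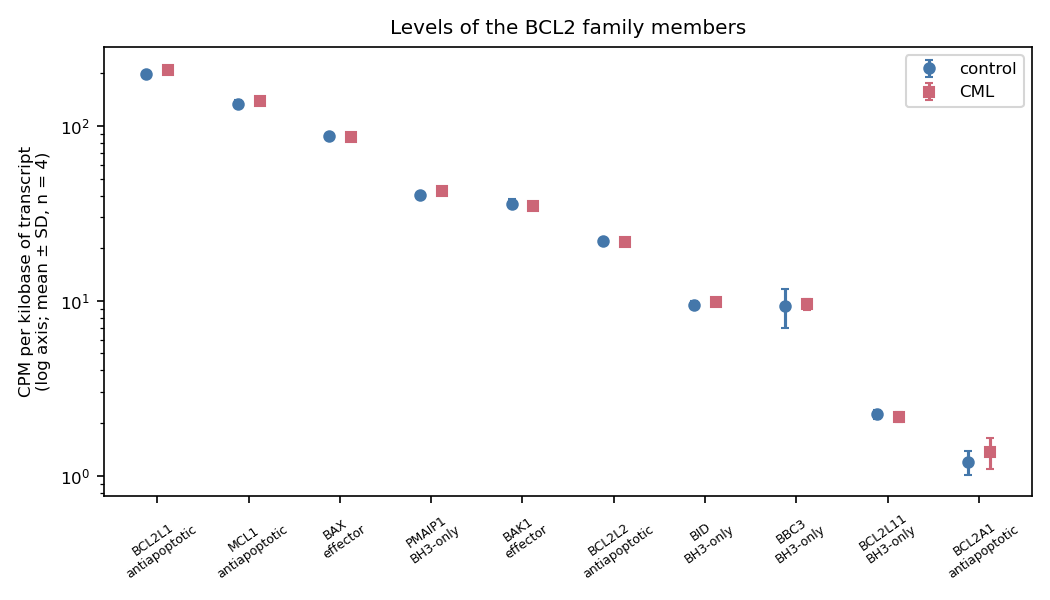
Levels of the 10 members in CPM per kilobase of transcript (vertical log axis), mean ± SD over 4 control libraries (circles) and 4 CML libraries (squares), ordered by the control mean. BCL2L1 and MCL1 lead, BID and BBC3 lie together, and the 2 groups lie close to each other for every member.

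Added up per kilobase over the 10 members only, the 4 antiapoptotic genes made up 65.8% ± 0.821 in controls and 66.6% ± 0.583 after CML (SD, n = 4 each). All splice forms of BCL2L1 were counted as antiapoptotic here, and the shares depend on the same transcript lengths. The 2 effectors made up 22.9% ± 0.654 and 21.8% ± 0.476, and the 4 BH3-only genes 11.3% ± 0.360 and 11.6% ± 0.189. The ranges over libraries overlapped for each of these shares, from 64.9% to 66.5% in controls against 66.0% to 67.3% after CML for the antiapoptotic genes. The effector share ran from 22.3% to 23.8% in controls and from 21.2% to 22.3% after CML. The summed level of the 10 members was 539 ± 5.34 CPM per kilobase in controls, from 532 to 543, and 557 ± 10.3 after CML, from 545 to 569, so that the groups did not overlap in the sum. BCL2L1, the largest part of the sum, was at 197 ± 6.21 CPM per kilobase in controls and 209 ± 7.27 after CML. How often sums of other genes separate the groups was not examined, and neither the shares nor the sum were tested.

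The central comparison asked whether CML changed the expression of the family. None of the 10 members passed the study's FDR of 0.3 in limma's fit over all genes, where 158 of 17649 genes passed (0.895%), and the count over all genes was 0 at an adjusted p of 0.05 and 1352 at an unadjusted p of that size. The members' log2 fold changes, computed on log2(CPM + 1), lay between −0.05 and 0.09, and 6 of the 10 were above 0. So were 9445 of the 17649 genes tested, and 7669 of the 13047 that averaged 1 CPM or more. The members' median was 0.05, against 0.0066 over all genes tested and 0.0149 over those averaging 1 CPM or more. At an unadjusted p under 0.05, 2 members were higher, BCL2L1 and PMAIP1, against 4.77% of all genes higher at that threshold. No member separated the groups without overlap, as 3.78% of all genes did.

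**Figure D2:**
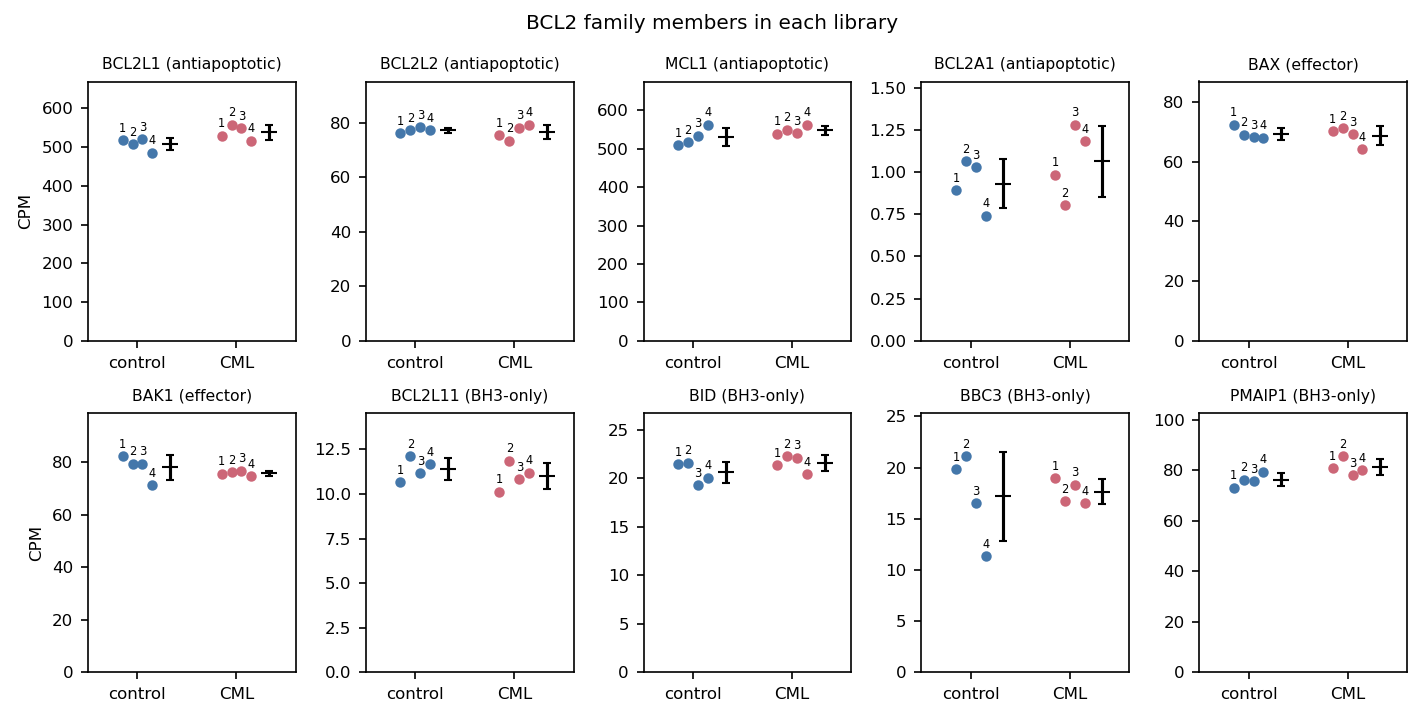
CPM of each member (vertical axes from 0, each panel with its own scale) in the 4 control libraries (blue) and the 4 CML libraries (red), numbered by replicate, with the group mean ± SD in black. The groups overlap in every panel, and control replicate 4 is far below the other controls for BBC3.

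Among the antiapoptotic genes, BCL2L1 (ENSG00000171552.13, GRCh38 chr20:31664452-31723963, minus strand) had 517, 507, 521 and 485 CPM in control replicates 1 to 4 and 529, 558, 549 and 516 CPM in CML replicates 1 to 4. 3 of the 4 CML libraries were above every control, while CML replicate 4 lay among the controls. The means were 507 ± 16.0 and 538 ± 18.7 CPM, a difference of 6.03% and a log2 fold change of 0.08 (SE 0.033, 95% interval 0.007 to 0.162). limma gave an unadjusted p of 0.0370 and an adjusted p of 0.604, and the 2-sided exact permutation test of the CPM means gave p = 0.0857. The smallest p that test can give with 4 against 4 libraries is 0.0286. With 8299 to 10420 reads per library, counting error was about 1.06% of the level, below the 3.15% spread of the controls.

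MCL1 (ENSG00000143384.13, chr1:150574558-150579610, minus strand) had 509, 518, 534 and 562 CPM in controls and 539, 550, 540 and 562 CPM after CML. The groups overlapped because control replicate 4 lay above 3 of the 4 CML libraries. The log2 fold change was 0.05 (SE 0.033, 95% interval −0.03 to 0.13), with an adjusted p of 0.862 in limma and an exact permutation p of 0.229.

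BCL2L2 (ENSG00000129473.9, chr14:23306833-23311751, plus strand) ranged from 76.1 to 78.4 CPM in controls and from 73.4 to 79.2 CPM after CML, with a log2 fold change of −0.01 (SE 0.026, adjusted p = 0.987, limma). Its values were not whole reads in any of the 8 libraries, and on the same strand it overlaps the readthrough gene BCL2L2-PABPN1, which has its own row, so the split of reads between these 2 genes is uncertain. BCL2A1 (ENSG00000140379.8, chr15:79960892-79971196, minus strand), known as an NF-κB target in blood cells, was near the limit of measurement. It had 0.894, 1.06, 1.03 and 0.741 CPM in controls and 0.984, 0.803, 1.28 and 1.18 CPM after CML, from 13 to 21 reads per library. Counting error alone was 24.3% of that level, above the spread of either group, and the 95% interval of the log2 fold change of 0.09 ran from −0.12 to 0.30.

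Neither effector was called on the deposited values. BAX (ENSG00000087088.20, chr19:48954875-48961798, plus strand), which moves from the cytosol into the mitochondrial membrane, had 72.4, 69.1, 68.2 and 68.0 CPM in controls and 70.2, 71.2, 69.2 and 64.3 CPM after CML. The log2 fold change was −0.02 (SE 0.037), and its 95% interval of −0.10 to 0.07 corresponds to a difference of −6.80% to 5.07%. BAK1 (ENSG00000030110.13, chr6:33572552-33580276, minus strand), which resides in that membrane, had 82.3, 79.5, 79.5 and 71.3 CPM in controls. After CML it had 75.7, 76.2, 76.8 and 74.7 CPM, so that every CML library lay between control replicate 4 and the other controls. The values of BAK1 were whole reads in only 4 of the 8 libraries, so its levels too are partly estimates. Over all 8 libraries the log2 fold change of BAK1 was −0.04 (SE 0.043, adjusted p = 0.916, limma). Without control replicate 4 it was −0.08 with an adjusted p of 0.221, the only member called in that setting, where 3.91% of all genes were called.

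The BH3-only genes carry the stress signals into the family. PMAIP1 (NOXA; ENSG00000141682.11, chr18:59899996-59904305, plus strand), whose product binds MCL1, had 73.2, 76.3, 75.8 and 79.6 CPM in controls and 80.9, 85.6, 78.2 and 80.0 CPM after CML. 3 of the 4 CML libraries were above every control, and CML replicate 3 was below control replicate 4. The means of 76.2 ± 2.60 and 81.2 ± 3.17 CPM differed by 6.49%, with a log2 fold change of 0.09 (SE 0.035, 95% interval 0.007 to 0.172). The unadjusted p was 0.0375, the adjusted p 0.607 (limma) and the exact permutation p 0.0571.

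BBC3 (PUMA; ENSG00000105327.17, chr19:47220824-47232860, minus strand), a BH3-only gene whose product engages all antiapoptotic members, had 19.9, 21.1, 16.5 and 11.3 CPM in controls and 19.0, 16.7, 18.3 and 16.6 CPM after CML. The CML libraries were close together, whereas the controls spread over almost a wide range, with a coefficient of variation of 25.4% against 5.81% from counting. The difference could therefore not be resolved, with a log2 fold change of 0.07 (SE 0.182, 95% interval −0.36 to 0.50). Control replicate 4 set its direction, since the log2 fold change of BBC3 was −0.11 (SE 0.095, adjusted p = 0.762, limma) without that library and −0.08 without replicate 4 of both groups. BID (ENSG00000015475.18, chr22:17734138-17774665, minus strand), which caspase-8 cleaves into its active form, had 21.4, 21.6, 19.3 and 20.1 CPM in controls and 21.4, 22.3, 22.1 and 20.4 CPM after CML. Its log2 fold change was 0.06 (SE 0.046, adjusted p = 0.870, limma). BCL2L11 (ENSG00000153094.23, chr2:111120914-111168445, plus strand), the gene for BIM, had 10.7, 12.1, 11.2 and 11.7 CPM in controls and 10.1, 11.9, 10.8 and 11.2 CPM after CML. Its log2 fold change was −0.05 (SE 0.060, adjusted p = 0.946, limma), and it shares its locus with MIR4435-2HG on the opposite strand. Whether reads were counted by strand is not given in the sources used here.

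The members' base composition spans much of the range of human transcripts, from 36.7% GC in PMAIP1 to 69.7% in BBC3, and the members differed as follows in the libraries that stood apart. In control replicate 4, the most GC-rich member, BBC3, differed by −0.70 on the log2 scale from the mean of the other 3 controls. For BAK1, at 58.6% GC, this difference was −0.17. It was only −0.04 for BAX, at 60.8% GC, and −0.09 for BCL2L1, at 56.6% GC. It was 0.11 for MCL1, at 45.1% GC, and 0.08 for PMAIP1, so these members were higher there than in the other controls. BCL2A1, with its few reads, was lower (−0.20) at a GC content of 40.4%. In control replicate 1 the differences from the other controls were 0.31 for BBC3 and 0.10 for BAK1, and −0.12 for BCL2L11 and −0.08 for MCL1. In CML replicate 4 the differences from the other CML libraries were −0.11 for BBC3, −0.13 for BAX and 0.05 for MCL1, but also −0.10 for BID and −0.03 for PMAIP1, the most GC-poor member.

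**Figure D3:**
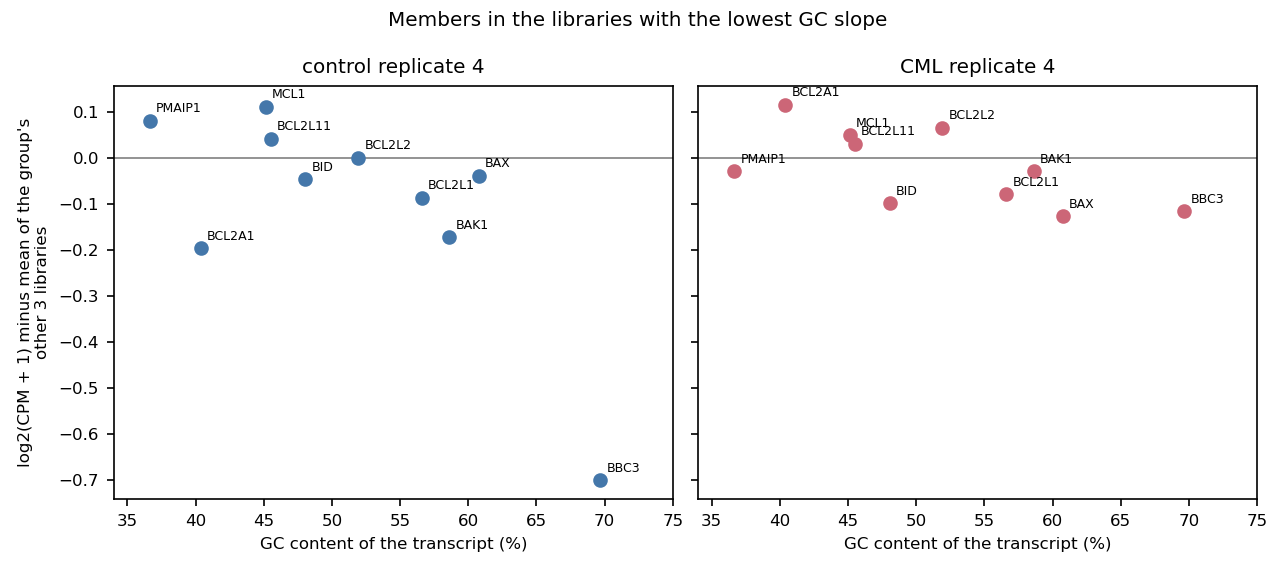
Difference of control replicate 4 (left) and CML replicate 4 (right) from the mean of the other 3 libraries of the same group, as log2(CPM + 1), against the GC content of each member's transcript in percent. BBC3, the member with the highest GC content, lies at −0.70 in control replicate 4.

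The comparison was also repeated after smooth curves had been used to take the influence of GC content and of transcript length out of each library, over 12929 genes that averaged 1 CPM or more. BCL2A1 was below that mean, and 9 members were tested. After this correction BCL2L1 had log2 values of 8.979, 9.003, 8.999 and 8.967 in controls and 9.042, 9.108, 9.083 and 9.072 after CML, and the groups no longer overlapped. Its log2 fold change was 0.09 (SE 0.020, adjusted p = 0.0251, limma). BCL2L1 was called in all 8 fits of the corrected values that left out 1 library, with adjusted p from 0.0332 to 0.121. MCL1 was also called, at a log2 fold change of 0.05 (SE 0.019, adjusted p = 0.284, limma), with corrected log2 values of 9.04, 9.03, 9.06 and 9.08 in controls and 9.09, 9.11, 9.10 and 9.11 after CML. MCL1 kept its call in 1 of the 8 fits that left out a library. That made 2 of 9 tested members higher, where 5.9% of all genes were called higher, and the same 2 members were without overlap, where 7.66% of all genes were.

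The other corrected members were not called. PMAIP1 had a log2 fold change of 0.07 (adjusted p = 0.481, limma), and it passed at an adjusted p of 0.278 when CML replicate 4 was left out. For BBC3 the correction reduced the SE from 0.182 to 0.072 while the log2 fold change was 0.08, and the adjusted p was 0.719 (limma). The SE rose for BCL2L2 (0.026 to 0.034), BAX (0.037 to 0.040), BCL2L11 (0.060 to 0.076), BID (0.046 to 0.062) and PMAIP1 (0.035 to 0.037). BAK1 was at −0.04 with an adjusted p of 0.719. The correction removes trends fitted over all of these genes, and it was applied because 3 libraries stood apart in how levels followed GC content.

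**Figure D4:**
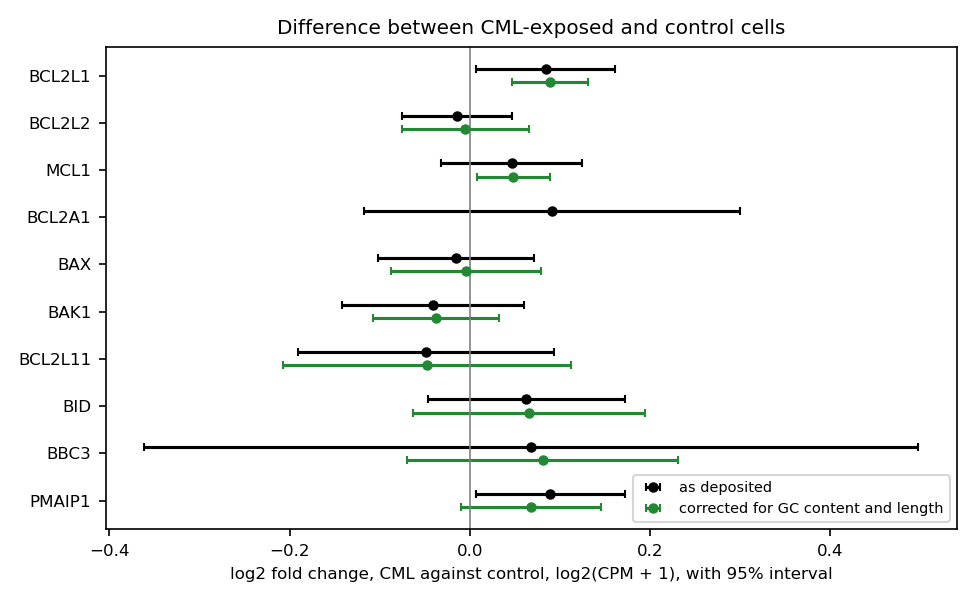
Log2 fold change of CML against control (horizontal axis) for each member with its 95% interval, from the deposited values (black, 10 members) and after correction for GC content and transcript length (green, 9 members). The interval narrows most for BBC3 and widens for BCL2L2, BCL2L11 and BID. After the correction the intervals of BCL2L1 and MCL1 lie above 0.

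The pattern of BCL2L1 over the 8 libraries was compared with that of 9409 genes that averaged 10 CPM or more. The most similar genes by Pearson correlation of log2(CPM + 1) were TPI1 (0.989), CAPG (0.974) and MYBL2 (0.972), given as a description, since all points share the same 8 libraries and their base composition. TPI1, a glycolytic enzyme, was at 282 ± 7.79 CPM in controls and 302 ± 10.2 CPM after CML (adjusted p = 0.488, limma).

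The genes that work around the 10 members were taken from lists of the pathway, and none of the 53 in the table was called on the deposited values, while 7 had an unadjusted p under 0.05 (limma). Among 10 further BCL2-family genes in the table none was called, and their median log2 fold change was 0.05. The mitophagy receptor BNIP3L had a log2 fold change of 0.04 and the mitochondrial BCL2L13 of 0.08 (adjusted p = 0.763 for the latter, limma). Of 19 genes for cytochrome c release, the apoptosome and the caspases, none was called and 14 were above 0, with a median of 0.05. Of the 13047 genes that averaged 1 CPM or more, 7669 were above 0, with a median of 0.0149. Cytochrome c itself, CYCS, had 199 CPM in controls and 209 CPM after CML (log2 fold change 0.07, adjusted p = 0.673), and APAF1, the scaffold it binds, had 24.0 and 26.6 CPM (0.14, adjusted p = 0.721). None of the 5 genes for turnover of family proteins was called, and HUWE1, a ubiquitin ligase of MCL1, had a log2 fold change of 0.04, and USP9X, which removes ubiquitin from MCL1, one of 0.05.

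Of the 6 inhibitor of apoptosis genes in the table, 3 had an unadjusted p under 0.05 (limma) and were higher, where 4.77% of all genes were. BIRC5 (survivin), which also serves in mitosis, had 25.4 CPM in controls and 28.7 CPM after CML, where the log2 fold change was 0.17 and the adjusted p 0.558. BIRC2 (cIAP1) had 182 and 196 CPM, where the log2 fold change was 0.11 and the adjusted p 0.615. After the GC and length correction 3 of the 6 were higher, BIRC2 (adjusted p = 0.0547), BIRC3 (0.126) and BIRC5 (0.166), where 5.9% of all genes were. When 1 library was left out as well, BIRC2 was called in all 8 fits. BIRC3 lost its call without control replicate 3 and without CML replicate 2, and BIRC5 lost it in 4 of the 8 fits, without control replicate 2 (adjusted p = 0.310, limma), control replicate 3 (0.368), CML replicate 2 (0.408) or CML replicate 3 (0.304). Of 13 transcription factors that regulate members of the family, 4 had an unadjusted p under 0.05 and were higher, against 4.77% of all genes, and STAT3, an activator of BCL2L1 and MCL1, had the smallest p (142 and 152 CPM, log2 fold change 0.10, adjusted p = 0.507). MYC had 269 and 294 CPM, for which the log2 fold change was 0.13 and the adjusted p 0.549. After the correction 4 of the 10 reported here were called higher (limma), against 5.9% of all genes, and all 4 kept the call in each of the 8 fits that left out 1 library. They were STAT3 (adjusted p = 0.0668), NFKB1 (0.0717), E2F1 (0.0920) and MYC (0.0983). The lists were chosen with earlier results of these data known, so the counts and shares of both lists are descriptive.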

How the data were processed

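The deposited values are CPM, with 8 library columns and 17681 rows that carry an Ensembl identifier and a symbol. The authors' processing notes name edgeR and hg38, and for the tumors of the same study the methods describe scaling by TMM factors before CPM were calculated. The aligner and counting tool of this experiment are not given in the sources used here. Between 85.1% and 86.1% of the values above 0 were whole reads (tolerance 0.02), so the values were estimates and no count test was used. The 32 symbols with several rows were averaged, and log2(CPM + 1) was compared with limma 3.58.1 in R 4.3.3 (two-sided, variance trend, Benjamini-Hochberg over 17649 genes, FDR 0.3 and 0.05). Single genes were also compared by an exact permutation test over 70 labellings. The GC and length correction used splines with 5 degrees of freedom. Scripts were tested on simulated data. Coordinates are those of RefSeq for GRCh38.p14, and lengths and GC content are those of 1 GENCODE transcript per gene. The members and lists were chosen with earlier results of these data known. Genes named were all members, in each list those called and the 2 with the smallest p, and the 3 genes most like the member with the smallest p. Genes called only after the correction were named in addition, after their values were seen. The result of 1 list gene is not reported here. Alternatives were other pseudocounts, filters, scalings, a replicate block, the correction and the removal of libraries. The fits that combined removal of a library with the correction, the straight-line correction and the removal of replicate 4 from both groups were chosen after seeing the data.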

Additional observations from a re-analysis of the deposited data

Results flagged for a closer look

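Control replicate 4 was estimated at 17729518 reads, above the other 3 controls at 16559915 to 16690411, a gap that Dixon's test marks at the 95% level. The GC slope of CML replicate 4 was −0.0709 on the log2 scale per 10 percentage points of GC content, against 0.0130 to 0.0238 in the other CML libraries, and was marked by the same test. Of 52 groups of 4 values examined, 2 were marked, where chance marks about 2.6. No member of the BCL2 family was marked, including BBC3 in the controls.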

How the results depend on the processing

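None of the 10 members was called on the deposited values, nor with a pseudocount of 0.1, the 1 CPM filter, rows kept apart, median centring, quantile normalization, no variance trend or without replicate 4 of both groups. Leaving out 1 library gave 0 to 1 member called, the 1 being BAK1 without control replicate 4. After the GC and length correction 2 members were called, with straight lines in place of splines 1 (BCL2L1), and with 1 library left out as well 1 to 2. Whether replicate numbers paired the samples was not settled. The correlations of same-numbered libraries were 0.199, −0.0303, −0.0645 and 0.334 for replicates 1 to 4, against −0.304 to 0.113 for libraries of other numbers. The replicate block left 0 members called and 189 genes over the table, and the replicate block with the GC and length correction called 2 members, 8 list genes and 1125 genes. For the lists the count of 0 became 1 with the block (MYC), 8 after the correction, 0 to 8 with 1 library left out and 2 without replicate 4 of both groups. Over the table, 158 genes were called, against 73 with median centring, 1027 after the correction, 321 without replicate 4 of both groups, and 20 (without CML replicate 2) to 690 (without control replicate 4) with 1 library left out. The cause of these changes was not tested. Median centring shifted all log2 fold changes by −0.02, and BCL2L1 and PMAIP1 were then at 0.065 and 0.070. BCL2L2, BAX and BBC3, none of them called, changed sign in 4, 5 and 2 of 27 settings. For BBC3 these were the fits without control replicate 4 and without replicate 4 of both groups. Depth limits BCL2A1, and the spread of the controls limits BBC3.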
